A study of Ovis aries with 15 samples.

Results

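The thick ascending limb of the loop of Henle was described here through 8 genes chosen by name: UMOD, SLC12A1, KCNJ1, CLDN10, CLDN16, EGF, CASR and PTGER3. Of the 8, 7 had a row in the deposited table of 25592 genes. EGF was not analysed here. Each of the 7 passed the filter on low values and was tested with 13162 genes in all. RNA came from kidney pieces of male Dorper × Small-tailed Han crossed sheep of one age class, with 5 libraries per group and no other genotype or allele. The CON group ate a total mixed ration, the AFB1 group ate the ration with added aflatoxin B1, a mould toxin, and the AFB1_CUR group ate the ration with the same dose of aflatoxin B1 and added curcumin, a plant phenol. Total counts ran from 50255295 to 68747047 per library, so that counting error was small beside the spread between animals.

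In this segment, salt is taken up from the tubular fluid without water, and the voltage that arises drives calcium and magnesium between the cells. The cotransporter encoded by SLC12A1 (NKCC2) carries sodium, potassium and chloride in across the apical membrane, and the channel encoded by KCNJ1 (ROMK) returns the potassium to the lumen. Claudins 10 and 16 form the paracellular pores for sodium and for divalent ions, the calcium-sensing receptor CASR and the prostaglandin E2 receptor EP3 (PTGER3) restrain transport, and uromodulin (UMOD) is the main protein that the segment releases into urine.

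The library labelled AFB1 replicate 1 stood apart from the others and went against its tissue label. Its summed FPKM (fragments per kilobase of gene model, scaled to the library's depth) over 12 hepatocyte genes was 49961, against 58.8 to 195 in the other 14 libraries, and its summed FPKM over the 7 thick ascending limb genes was 0.826, against 248 to 2163. In it UMOD was at 0.108 FPKM (a count of 17), SLC12A1 at 0.140 (44), CLDN10 at 0.122 (8), CLDN16 at 0.342 (272), CASR at 0.0269 (10) and PTGER3 at 0.0869 (49), and KCNJ1 had a count of 0, where a count of 0 allows up to 3. This library was kept out of the means, the correlations and the main tests. Fits with all 15 libraries were run beside them. In the other 14 libraries each of the 7 genes was present, with counts of at least 628. That lowest count was CLDN16 in AFB1_CUR replicate 2, at 0.784 FPKM, beside 0.342 FPKM (272) in AFB1 replicate 1. For CLDN16 the gap between that library and the other 14 was thus narrower than for any other of the 7 genes.

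In these 14 libraries the order of mean level was UMOD (730 FPKM), SLC12A1 (97.5), CLDN10 (78.4), KCNJ1 (64.3), CASR (5.95), PTGER3 (4.19) and CLDN16 (1.60). UMOD lay above SLC12A1 in 14 of 14 libraries, KCNJ1 above CASR in 14, CASR above PTGER3 in 12 and PTGER3 above CLDN16 in 14, and these 4 steps passed an exact sign-flip permutation test of the log2 ratio over libraries (two-sided, Benjamini-Hochberg adjusted over the 7 pairs tested, p = 0.000285, 0.000285, 0.00385 and 0.000285). SLC12A1 was above CLDN10 in 8 of 14 libraries (adjusted p = 0.472) and CLDN10 above KCNJ1 in 7 of 14 (adjusted p = 0.0971), so neither of these steps was beyond its spread. Across both steps, SLC12A1 was above KCNJ1 in 10 of 14 libraries (median ratio 1.46, adjusted p = 0.0379 by the same exact test). FPKM divides by the length of the gene model, and the counts and FPKM of CLDN16 together imply a model of about 14148 bases, against 2733 for UMOD and 1035 for CLDN10. For CASR they imply 6204 bases and for PTGER3 9682, and the test takes these lengths as given. By counts alone, CASR was above PTGER3 in some libraries, as in CON replicate 1 (2513 against 1908). In others CASR was below, as in AFB1 replicate 2 (2450 against 5966). The counts of CLDN16, before any division by length, were 628 to 3469 and were the lowest of the 7 genes in 12 of 14 libraries.

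**Figure D1:**
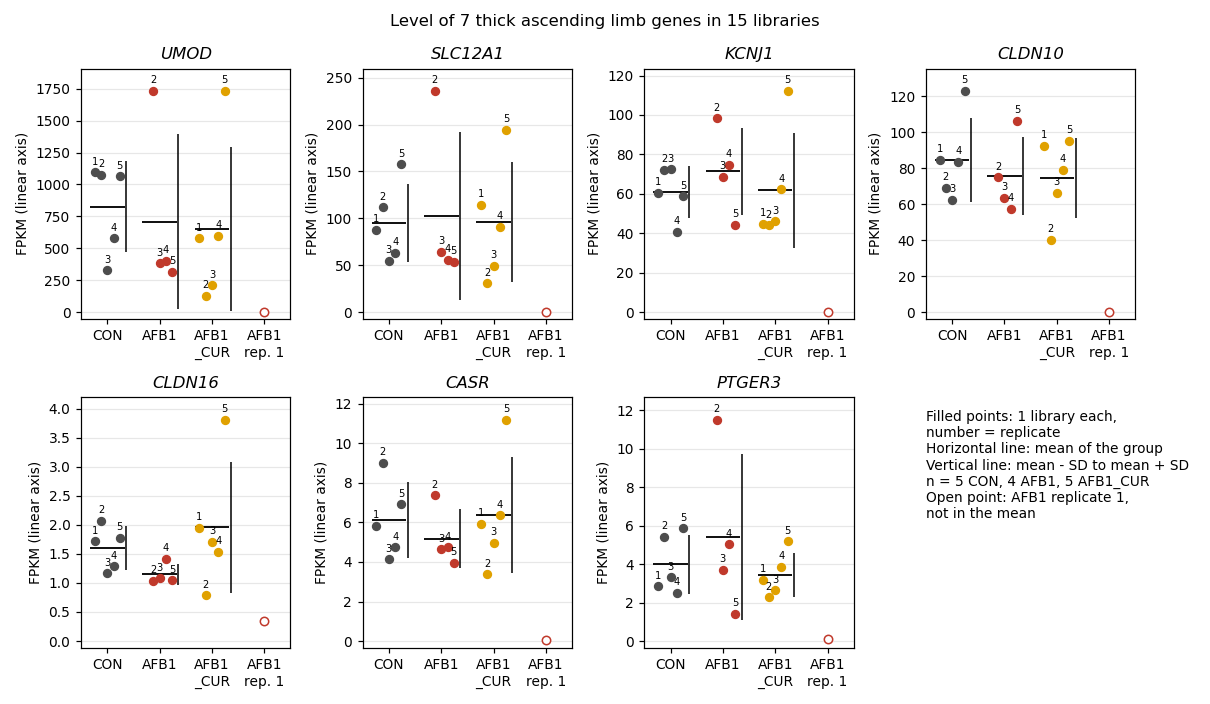
FPKM (linear axis from 0) of 7 thick ascending limb genes in every library, by group, with the group mean (horizontal line) and mean ± SD (vertical line; n = 5 CON, 4 AFB1 and 5 AFB1_CUR). The groups overlap for each gene, AFB1 replicate 2 and AFB1_CUR replicate 5 hold the 2 highest UMOD and SLC12A1 values, and AFB1 replicate 1 (open point, not in the means) lies at or near 0.

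UMOD lies on chromosome 24 at 18469103 to 18485147, minus strand. Coordinates are those of the deposited table, which equal the RefSeq gene coordinates of assembly ARS-UI_Ramb_v3.0 for the 7 genes. In CON the UMOD level was 1095, 1073, 327, 577 and 1063 FPKM in replicates 1 to 5. In AFB1 it was 1734, 382, 401 and 313 FPKM in replicates 2 to 5, and in AFB1_CUR it was 579, 126, 211, 600 and 1732 FPKM in replicates 1 to 5. The 3 groups overlapped widely. AFB1 replicate 2 and AFB1_CUR replicate 5 were about level at the top although they belong to different groups, and AFB1_CUR replicate 2 was lowest, with the highest library 13.7-fold above it. The SD of log2(FPKM + 1) over the 14 libraries was above that of 99.2% of the genes tested. UMOD was thus among the most variable genes of these kidneys, while 9.29% of its sum of squares lay between groups, against a median of 11.4% over the genes tested.

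SLC12A1 (chromosome 7, 60221503 to 60309352, minus strand) overlaps a weakly counted gene model on the other strand. The sources used here do not say whether the counting used strand. The SLC12A1 level in CON was 87.9, 112, 55.0, 63.3 and 158 FPKM. It was 236, 64.3, 56.0 and 53.3 FPKM in AFB1 replicates 2 to 5, and 114, 30.8, 49.4, 91.1 and 194 FPKM in AFB1_CUR. The pattern followed that of UMOD, with the same 2 libraries at the top and the same library at the bottom. The ratio of UMOD to SLC12A1 FPKM still varied, from 4.10 in AFB1_CUR replicate 2 to 12.5 in CON replicate 1. Between groups lay 0.722% of the sum of squares of SLC12A1.

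KCNJ1 (chromosome 21, 29653287 to 29687046, minus strand) varied less, with the highest library 2.75-fold above the lowest. Its level was 60.4, 72.2, 72.5, 40.8 and 58.7 FPKM in CON. It was 98.2, 68.6, 74.7 and 44.3 FPKM in AFB1 replicates 2 to 5, and 44.7, 44.0, 46.1, 62.2 and 112 FPKM in AFB1_CUR. In AFB1_CUR, 3 libraries lay close together near 45 FPKM and replicate 5 stood well above the rest. The ratio of SLC12A1 to KCNJ1 FPKM ran from 0.70 in AFB1_CUR replicate 2 to 2.69 in CON replicate 5. In whole-tissue RNA this ratio mixes segments, since collecting duct principal cells also use the KCNJ1 channel.

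CLDN10 (chromosome 10, 72301847 to 72322098, plus strand) had 1 transcript in the deposited table. Its level was 84.5, 68.9, 62.6, 83.5 and 123 FPKM in CON. It was 74.9, 63.4, 57.4 and 106 FPKM in AFB1 replicates 2 to 5, and 92.2, 40.3, 66.3, 78.9 and 95.2 FPKM in AFB1_CUR. The libraries with the most CLDN10 were CON replicate 5 and AFB1 replicate 5, and the latter was among the 3 lowest libraries for the other 6 genes. The ratio of UMOD to CLDN10 FPKM ran from 2.95 in AFB1 replicate 5 to 23.2 in AFB1 replicate 2, within a single group.

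CLDN16 (chromosome 1, 197724253 to 197852091, minus strand) was at 1.71, 2.07, 1.17, 1.29 and 1.78 FPKM in CON. It was at 1.04, 1.08, 1.42 and 1.05 FPKM in AFB1 replicates 2 to 5, and at 1.95, 0.784, 1.71, 1.53 and 3.81 FPKM in AFB1_CUR. The 4 AFB1 libraries were close together and toward the low end, and the AFB1_CUR group held both the lowest and the highest of the 14 libraries. AFB1 replicate 2, the highest library for UMOD and SLC12A1, was the second lowest for CLDN16. The share of its sum of squares between groups was 21.4%, higher than in 75.2% of the genes tested.

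The receptors differed from each other in their spread. CASR (chromosome 1, 187486228 to 187579370, plus strand, which overlaps a weakly counted model on the other strand) was at 5.84, 9.03, 4.14, 4.75 and 6.93 FPKM in CON. It was at 7.38, 4.65, 4.75 and 3.96 FPKM in AFB1 replicates 2 to 5, and at 5.94, 3.38, 4.98, 6.35 and 11.2 FPKM in AFB1_CUR. AFB1_CUR held the lowest and the highest library, as it did for CLDN16. PTGER3 (chromosome 1, 46565433 to 46796534, minus strand) was at 2.84, 5.43, 3.32, 2.50 and 5.86 FPKM in CON. It was at 11.5, 3.70, 5.02 and 1.41 FPKM in AFB1 replicates 2 to 5, and at 3.17, 2.27, 2.63, 3.87 and 5.18 FPKM in AFB1_CUR. The AFB1 group held both ends of the PTGER3 range, which spanned 8.17-fold, against 3.31-fold for CASR.

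**Figure D2:**
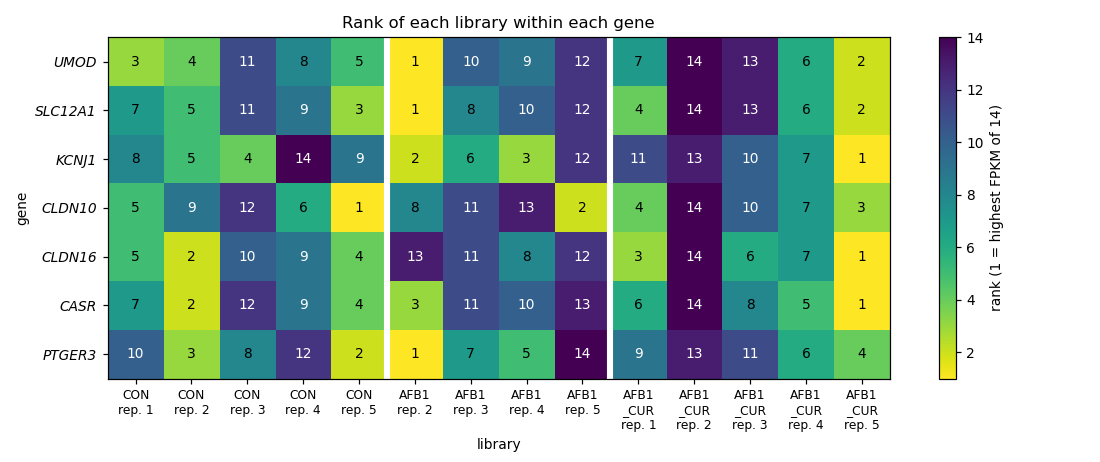
Rank of each of 14 libraries (columns, by group) within each of 7 genes (rows), where 1 is the highest FPKM. AFB1_CUR replicate 2 is among the 3 lowest libraries for 7 of 7 genes and AFB1_CUR replicate 5 among the 3 highest for 6 of 7, while AFB1 replicate 5 is second for CLDN10 and among the 3 lowest for the other 6.

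The plot of ranks shows that a few libraries were high or low for most of the genes. AFB1_CUR replicate 2 was lowest for 5 of 7 genes and second lowest for the other 2, KCNJ1 and PTGER3. AFB1_CUR replicate 5, of the same group, was highest for KCNJ1, CLDN16 and CASR, second for UMOD and SLC12A1 and among the 3 highest for CLDN10. AFB1 replicate 2 was highest for UMOD, SLC12A1 and PTGER3. Sums over genes of other cell types differed in the same libraries, some of them through 1 or 2 genes. AFB1_CUR replicate 2 also had the lowest summed FPKM of 8 measured proximal tubule genes (879, against 1039 to 2750 in the other 13), and was lowest for 4 of the 8 and among the 3 lowest libraries for 6. It had the highest sum of 5 adrenal genes (16.1, against 0.601 to 6.07), most of it from STAR (10.8) and CYP11A1 (4.57), while CYP17A1 (0.279), TH (0.146) and DBH (0.240) lay within the range of the other libraries. AFB1 replicate 2 and AFB1_CUR replicate 5 had the 2 highest sums over 6 inner medulla and thin limb genes (373 and 370 FPKM, against 116 to 301 in the other 12). CRYAB alone gave 303 and 295 FPKM of these sums, and the sums over the remaining 5 genes (70.5 and 75.1) lay within the 42.1 to 79.3 of the other libraries. AFB1 replicate 2 had the highest sum over 3 adipocyte genes (63.2, against 0.182 to 6.65). FABP4 alone gave 62.8 of that sum, while PLIN1 and ADIPOQ together were at 0.357 FPKM, within the 0.177 to 0.898 of the other libraries. What part the makeup of the tissue piece had in the levels was not tested. In whole-tissue RNA, fewer cells of a type and less RNA per cell cannot be told apart.

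The first comparison, AFB1 against CON, asks what the toxin does to the kidney. UMOD was at 827 ± 354 FPKM (SD, n = 5) in CON and 707 ± 685 (n = 4) in AFB1, SLC12A1 at 95.1 ± 41.4 and 102 ± 89.2, and KCNJ1 at 60.9 ± 13.0 and 71.5 ± 22.2. CLDN10 was at 84.5 ± 23.5 in CON and 75.5 ± 21.7 in AFB1, CLDN16 at 1.60 ± 0.372 and 1.15 ± 0.182, CASR at 6.14 ± 1.94 and 5.18 ± 1.5, and PTGER3 at 3.99 ± 1.55 and 5.41 ± 4.33. Counts were fitted with edgeR, and a gene was called, by the study's own screening limits, where its fold change exceeded 1.5 and its unadjusted p lay under 0.05. Of the 7 genes 0 were called and 0 were past the limit of p alone, where 1.76% of all tested genes were called (86 higher, 146 lower; with all 15 libraries 506 higher and 133 lower). Adjusted by Benjamini-Hochberg over all tested genes, 0 were called by edgeR, with 664 genes at an unadjusted p under 0.05, and 17 by DESeq2, none of them among the 7. No gene of the 7 had libraries that did not overlap between AFB1 and CON, as 1.54% of all tested genes did.

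On the log2 scale the fitted changes in AFB1 were positive for 3 of the 7 genes, with a median of -0.15, beside 0.02 over all tested genes. The median was -0.40, with 1 of 7 positive, without AFB1 replicate 2, 0.02 without CON replicate 5 and -0.47, with 1 of 7 positive, with all 15 libraries, so its sign and size rest on single libraries. The change of UMOD was -0.28 (95% interval -1.77 to 1.21, edgeR adjusted p = 0.978) and that of SLC12A1 0.06 (-1.11 to 1.22). A doubling or a halving lies inside both intervals, so this number of libraries could not have separated such a change from the spread between animals. Narrower intervals were found for KCNJ1 (0.21, -0.39 to 0.81), CLDN10 (-0.15, -0.79 to 0.48) and CASR (-0.25, -0.90 to 0.40). CLDN16 was at -0.48 (-1.21 to 0.26, edgeR adjusted p = 0.965), with 2 of the 20 possible pairs of libraries higher in AFB1, and PTGER3 at 0.40 (-0.55 to 1.34). The PTGER3 value rested on AFB1 replicate 2, without which it was -0.22. The SLC12A1 value likewise became -0.68 without that library, and that of UMOD -1.14.

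**Figure D3:**
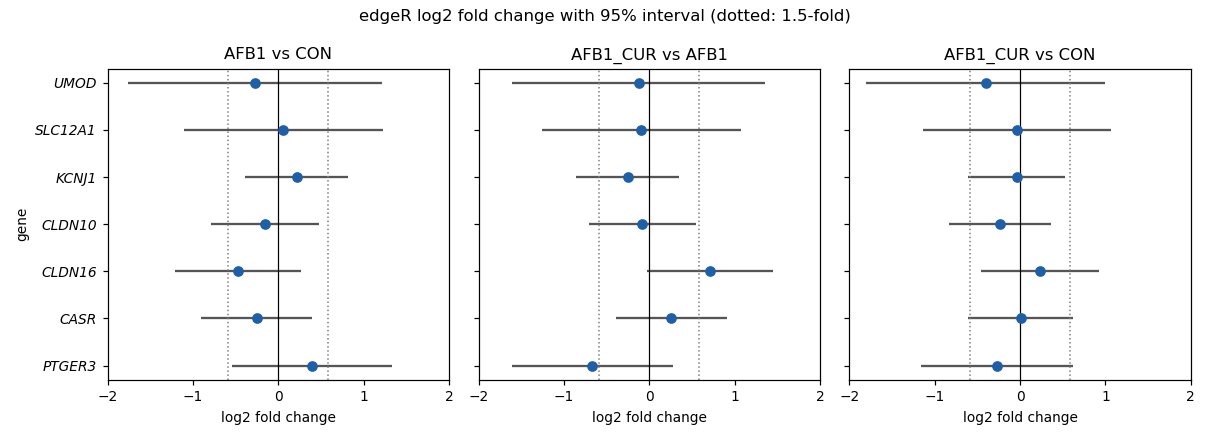
Fitted log2 fold change (points) with its 95% interval (lines) for 7 genes in the 3 comparisons, from edgeR on 14 libraries, with 0 as a solid line and 1.5-fold as dotted lines. Each interval crosses 0, those of UMOD and SLC12A1 are widest, and CLDN16 between AFB1_CUR and AFB1 (-0.03 to 1.45) comes closest to leaving 0 out.

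The second comparison, AFB1_CUR against AFB1, asks what curcumin changes in exposed sheep. In AFB1_CUR the means were 650 ± 641 FPKM (SD, n = 5) for UMOD, 96.0 ± 64.2 for SLC12A1, 61.9 ± 29.2 for KCNJ1, 74.6 ± 22.4 for CLDN10, 1.96 ± 1.12 for CLDN16, 6.37 ± 2.93 for CASR and 3.42 ± 1.15 for PTGER3. Of the 7 genes 0 were called, where 0.935% of all tested genes were called (54 higher, 69 lower; with all 15 libraries 78 and 447), and 0 had libraries that did not overlap between the groups, as 0.676% of all tested genes did. In some settings the balance of calls turned, as without AFB1 replicate 2 (148 higher, 113 lower) and with limma on log2(FPKM + 0.1) (78 and 56). After adjustment edgeR called 0 genes, with 303 at an unadjusted p under 0.05, and DESeq2 called 3.

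The CLDN16 change was 0.71 on the log2 scale (SE 0.345, 95% interval -0.03 to 1.45), just short of the limit of p, with an adjusted p of 1.0 by edgeR. In 16 of the 20 pairs of libraries the AFB1_CUR value was higher. CLDN16 passed both limits with all 15 libraries (0.87, interval 0.12 to 1.63), a setting in which 3.98% of all tested genes were called, and by DESeq2 (0.71), which called 1.17%. It also passed without AFB1 replicate 4 (0.84, interval 0.0045 to 1.68), where 122 of 13100 tested genes were called. Without AFB1_CUR replicate 2 it passed too (0.93, interval 0.37 to 1.49), where 193 of 13044 were called. Without AFB1_CUR replicate 5 the CLDN16 value was 0.34 (-0.26 to 0.95). Its adjusted p was 0.785 or above in each of these settings. The PTGER3 change was -0.67 (-1.61 to 0.28). It passed both limits without AFB1 replicate 5 (-0.97), where 221 of 13135 tested genes were called, and was -0.05 without AFB1 replicate 2. For the other 5 genes the log2 change lay between -0.25 (KCNJ1) and 0.26 (CASR), and the median over the 7 was -0.09 beside 0.00 over all tested genes. Leaving out AFB1 replicate 2 turned that median to 0.43, and leaving out AFB1_CUR replicate 2 or 3 turned it to 0.15 or 0.07. It was -0.49 when AFB1_CUR replicate 5 was left out and 0.23, with 6 of 7 positive, with all 15 libraries.

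Between AFB1_CUR and CON 0 of the 7 genes were called, where 1.63% of all tested genes were called (138 higher, 76 lower; without AFB1_CUR replicate 2, 48 and 67). Of the 7, 0 had libraries that did not overlap, as 0.722% of all tested genes did. After adjustment edgeR called 0 genes, with 723 at an unadjusted p under 0.05, and DESeq2 called 1. The log2 changes were -0.40 (-1.80 to 1.0) for UMOD, -0.03 (-1.13 to 1.07) for SLC12A1, -0.04 (-0.61 to 0.53) for KCNJ1, -0.24 (-0.83 to 0.36) for CLDN10, 0.24 (-0.45 to 0.93) for CLDN16, 0.01 (-0.61 to 0.62) for CASR and -0.27 (-1.16 to 0.62) for PTGER3. The UMOD value was -1.14 without AFB1_CUR replicate 5 and -0.12 without AFB1_CUR replicate 2. The median over the 7 was -0.04, beside 0.00 over all tested genes. It was -0.36, with 0 of 7 positive, without AFB1_CUR replicate 5 and 0.09, with 4 of 7 positive, without AFB1_CUR replicate 2. The 3 comparisons share libraries with each other, so their values are not independent.

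The partners of these genes were described with 6 further lists, of 48 genes in all, of which 40 were tested. Between AFB1 and CON 0 of the 40 were called, where 1.76% of all tested genes were, and 26 had a positive log2 change (median 0.06), as 53.4% of all tested genes had. Between AFB1_CUR and AFB1 0 were called, beside 0.935% of all tested genes, and 12 were positive (median -0.12), beside 50.1%. Between AFB1_CUR and CON 1 was called, beside 1.63%, and 15 were positive (median -0.15), beside 49.5%. With all 15 libraries the direction turned in both comparisons that hold AFB1. Between AFB1 and CON 15 of 40 were positive (median -0.16), and between AFB1_CUR and AFB1 30 of 40 (median 0.07). PTGS1, the constitutive cyclooxygenase, was called in both (1.24 and -1.39), where 639 and 525 of 13193 tested genes were called. The PTGS1 level was 11.6 FPKM in AFB1 replicate 1, against 1.25 to 3.92 in the other 14 libraries, so both calls rest on that library. Without AFB1 replicate 5, 5 of the 40 were called between AFB1 and CON (3 higher, 2 lower), beside 454 of 13135 tested genes. Between AFB1_CUR and AFB1 that fit called 2 of the 40, both higher, beside 221 of 13135 tested genes.

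The gene called was CLDN3, a barrier-forming claudin. Its level was 1.70, 1.76, 1.27, 1.18 and 1.71 FPKM in CON and 0.691, 7.54, 1.62, 3.42 and 2.78 FPKM in AFB1_CUR. The groups overlapped, and AFB1_CUR replicate 2, the library lowest for most of the 7 genes, stood far above the rest. The log2 change was 0.95 (95% interval 0.034 to 1.86, edgeR adjusted p = 0.823). Without AFB1_CUR replicate 2 it was 0.45 (-0.31 to 1.22) and was not called, and of the 14 fits that each left out 1 library 3 called it. With all 15 libraries CLDN3 was at 0.95 (SE 0.58) and was not called.

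Within each of the 6 lists, the genes of largest log2 change over the 3 comparisons were as follows. Among 8 tested partners in salt transport they were the apical sodium-proton exchanger SLC9A3 (-0.53) and the basolateral potassium channel KCNJ10 (0.44), both between AFB1 and CON. Among 9 regulators of the cotransporter they were CAB39L (0.56), a cofactor of the kinases that activate it, and SORL1 (0.39), a sorting receptor, in the same comparison. Of 6 paracellular and magnesium genes, RRAGD, a GTPase of the mTORC1 pathway, followed CLDN3 with -0.48 between AFB1_CUR and AFB1. The 8 transcription factors ranged up to ESRRB (-0.63) between AFB1_CUR and AFB1 and IRX2 (-0.56) between AFB1 and CON. The 3 macula densa genes ranged up to PTGS2 (-0.44), the inducible cyclooxygenase, between AFB1_CUR and AFB1, and the 6 ligand and receptor partners up to PTGER4 (0.40) between AFB1 and CON. Apart from CLDN3, none of these values passed both limits.

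The 7 genes were next compared across libraries, to ask whether genes of one segment varied together from kidney to kidney. Each of the 21 pairs had a positive Pearson's r of log2(FPKM + 1) over 14 libraries, with a median of 0.635, where 58.5% of all pairs of tested genes had a positive r. In 15 of the 21 pairs the permutation p was under 0.05 (two-sided, 100000 resamples), and in 15 after Benjamini-Hochberg adjustment over the 21. The smallest r that passed was 0.574, and 10.9% of all pairs of tested genes lay at or above it. The pairs share genes and libraries, and are not independent of each other. With the group means removed 17 pairs passed, so the relation did not come from differences between group means alone. That test shuffles the deviations freely over the 14 libraries, which can make p too small, and no single group was examined. By Spearman's rho 9 pairs passed (8 after adjustment), without AFB1_CUR replicate 2 11 pairs (7 after adjustment), and without AFB1_CUR replicate 5 10 pairs (8 after adjustment). With AFB1 replicate 1 included 21 pairs passed, a count that rests on that library.

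**Figure D4:**
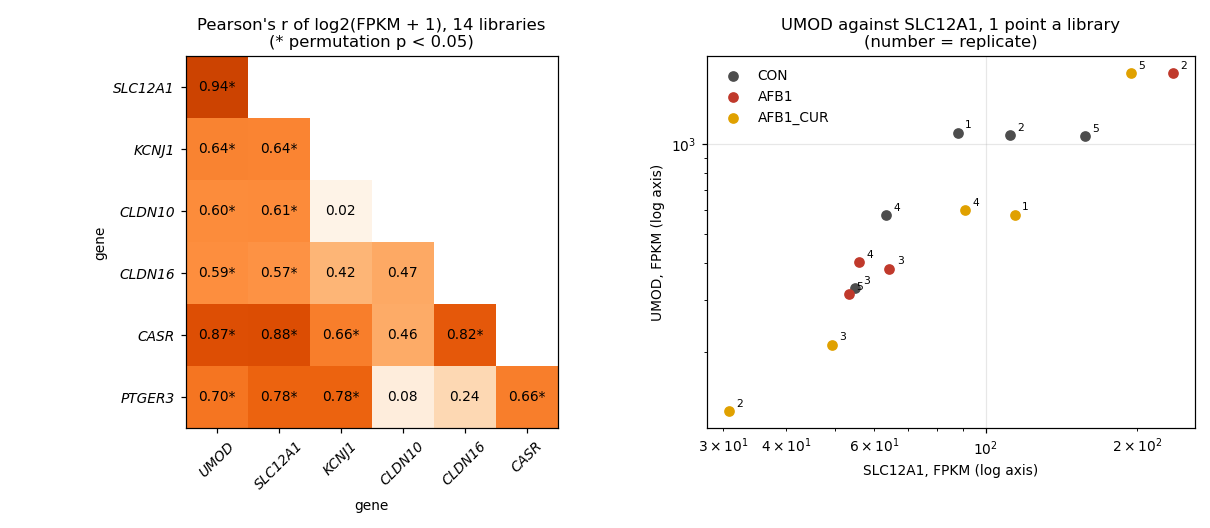
Left, Pearson's r of log2(FPKM + 1) over 14 libraries for each of 21 pairs of genes (asterisk, permutation p < 0.05). Right, UMOD against SLC12A1 FPKM on log axes, 1 point a library and colours by group: the points of the 3 groups lie along 1 band (r = 0.936), while CLDN10 has r of 0.0201 with KCNJ1 and 0.0784 with PTGER3.

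UMOD and SLC12A1 were the closest pair, with r = 0.936 (permutation p = 1e-05, the smallest that these resamples can give; adjusted p = 0.00021) and rho = 0.921 (p = 1e-05). Without the 2 libraries farthest from the median, AFB1 replicate 2 and AFB1_CUR replicate 2, r was 0.897. CASR followed both, with r = 0.875 for SLC12A1 (permutation p = 3e-05, adjusted 0.000315; rho = 0.877, p = 0.00018; r without the 2 farthest libraries 0.870) and r = 0.870 for UMOD (permutation p = 6e-05, adjusted 0.00042; rho = 0.873, p = 8e-05; 0.851). CASR and CLDN16 had r = 0.821 (permutation p = 0.00032, adjusted 0.00168; rho = 0.714, p = 0.00543), which was 0.585 without AFB1_CUR replicates 2 and 5. The relation of SLC12A1 with KCNJ1 (r = 0.635, permutation p = 0.0155, adjusted 0.0296; rho = 0.503, p = 0.0699) fell to 0.27 without AFB1 replicate 2 and AFB1_CUR replicate 5 and so rests on those libraries.

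CLDN10 had the lowest median r with the other members (0.467) of the 7 genes. Of its 6 pairs, those with UMOD (r = 0.600, permutation p = 0.0224, adjusted 0.0336; rho = 0.481, p = 0.0839) and SLC12A1 (r = 0.607, permutation p = 0.0206, adjusted 0.0336; rho = 0.534, p = 0.052) passed, and r was 0.473 and 0.725 when the 2 libraries farthest from the median of the partner were left out. Without AFB1_CUR replicate 2 alone r was 0.386 (permutation p = 0.193) and 0.437 (permutation p = 0.135), so both relations rest on that library. With CLDN16 it had r = 0.469, with CASR 0.464, with KCNJ1 0.0201 and with PTGER3 0.0784, and these did not pass. Without AFB1 replicate 5, the library with much CLDN10 and little of the other genes, 4 of its 6 pairs passed, with r = 0.737 for UMOD, 0.748 for SLC12A1, 0.636 for CASR (permutation p = 0.0198) and 0.609 for CLDN16 (permutation p = 0.0331), while r was 0.139 for KCNJ1 and 0.302 for PTGER3. The pairs of CLDN16 with KCNJ1 (r = 0.419) and with PTGER3 (r = 0.243) also did not pass.

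When the 13161 other tested genes were ranked by r with each member over the same 14 libraries, UMOD was first for SLC12A1, and SLC12A1 second and CASR at rank 10 for UMOD. CASR was first for CLDN16. The 3 genes most like UMOD were SIM2 (r = 0.968), SLC12A1 and IRX2 (0.906), and those most like SLC12A1 were UMOD, AK5 (0.927) and SIM2 (0.922). SIM2, a transcription factor, was at 0.508 to 6.39 FPKM, with the same lowest library (AFB1_CUR replicate 2) and the same highest library (AFB1 replicate 2) as UMOD. IRX2 is a homeobox factor of the nephron loop. CASR was closest to an unnamed locus (LOC121819109, 0.917), CLDN19 (0.909), the claudin that pairs with claudin 16, and VSIG1 (0.908). PTGER3 was closest to ESRRB (0.944), an orphan nuclear receptor, LOC101107232 (0.911) and MAGI1 (0.906). These r values are descriptions over the same 14 libraries, whose sums over genes of other cell types differed, and the genes were picked as the highest of many.

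The genes most like KCNJ1 and CLDN10 were not members. KCNJ1 was closest to GPR146 (0.922), TRPM5 (0.917) and BMP6 (0.914), and the nearest other member, PTGER3, was at rank 36. Its median r with the other 6 members was 0.638. Its r was positive with 7 of 7 tested genes of collecting duct principal cells (median 0.441), which also use this channel, while 63.2% of all tested genes had a positive r with it. It was likewise positive with 4 of 4 tested inner medulla and thin limb genes (median 0.569), 5 of 5 podocyte genes (0.355) and 4 of 5 intercalated cell genes (0.246). CLDN10 was closest to GPHN (0.957), CUBN (0.941), the cubilin of the proximal tubule's uptake of filtered protein, and SLC22A4 (0.929), and the nearest other member, SLC12A1, was at rank 770. Its r was positive with 8 of 8 tested proximal tubule genes (median 0.657, from 0.481 for SLC22A8 to 0.941), where 32.7% of all tested genes had a positive r with it. For UMOD the same median was 0.305 and for KCNJ1 -0.247. Claudin 10 is known to have a thick ascending limb form and a proximal tubule form, and the single row of the deposited table does not separate them. With the other 6 members CLDN10 had a median r of 0.467, lower than its median with the proximal tubule genes, whereas each of the other 6 had the higher of these medians with the members.

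**Figure D5:**
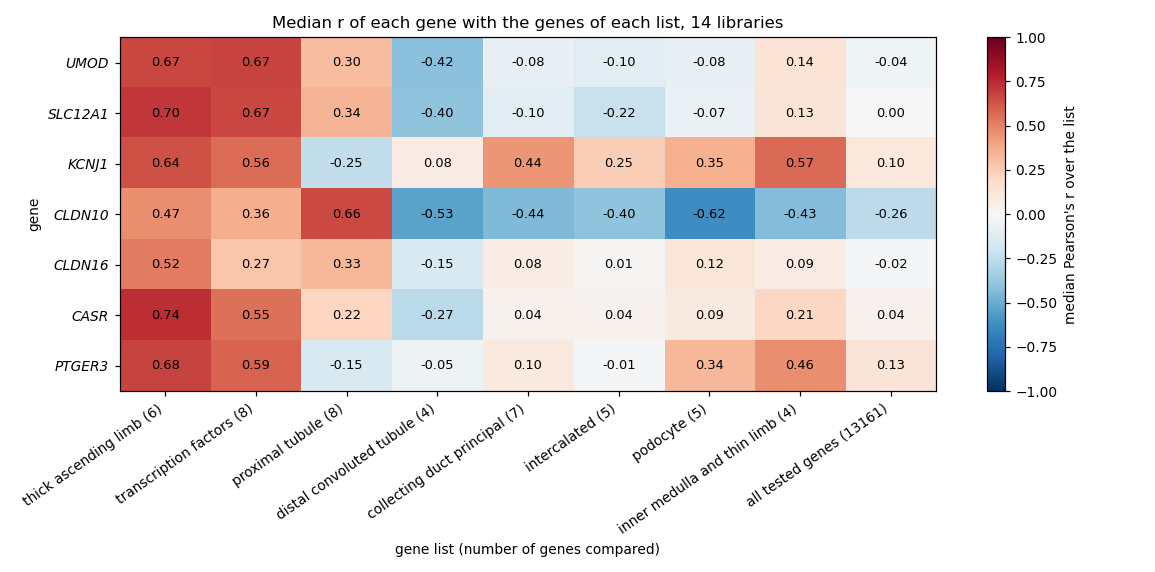
Median Pearson's r over 14 libraries of each gene (rows) with the tested genes of each list (columns, number of genes in parentheses; the member itself left out). CLDN10 has its highest median with the proximal tubule list (0.657), KCNJ1 has positive medians with the collecting duct (0.441) and inner medulla (0.569) lists, and UMOD, SLC12A1 and CASR have medians of 0.670 to 0.741 with the thick ascending limb list.

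The list of distal convoluted tubule genes, the segment that follows, differed between the members. UMOD, SLC12A1, CLDN10, CLDN16 and CASR had a negative r with 4 of 4 of its tested genes, with medians from -0.535 (CLDN10) to -0.153 (CLDN16). KCNJ1 had a positive r with 3 of the 4 (median 0.0811) and PTGER3 with 2 (median -0.0533). Over all tested genes the share with a positive r ran from 32.7% for CLDN10, through 43.0% for UMOD, 47.5% for CLDN16, 49.6% for SLC12A1 and 57.3% for CASR, to 65.6% for PTGER3. Of the 8 listed transcription factors, UMOD had a positive r with 7, from IRX2 at the top (rank 3 of 13161) and IRX1 (rank 4) to ESRRG (-0.491), the negative one.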

How the data were processed

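Kidney RNA of 15 sheep was sequenced as poly(A) libraries, grouped here by the sample titles (5 CON, 5 AFB1, 5 AFB1_CUR). Per the labels and the methods, the authors trimmed reads with cutadapt 1.9, aligned them with HISAT2 2.2.1, used StringTie 2.1.6, and deposited 2 values for every gene of a library, its count of reads and its FPKM. Of the 25592 symbols, 24947 matched the RefSeq table of ARS-UI_Ramb_v3.0 and 24848 of these had the same start and end.

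Genes at 1 FPKM or more in 5 or more libraries entered the test on the deposited counts, by edgeR 4.0.16 (R 4.3.3; TMM, quasi-likelihood, group as the term) on 14 libraries in 1 model, without AFB1 replicate 1, whose RNA was known beforehand to look like liver. FPKM was used for levels and, as log2(FPKM + 1), for correlations. Intervals of fold changes are 95%. DESeq2 1.42.0 and limma 3.58.1 were alternatives. In simulated data each tool was tested before use. The members and lists were chosen with earlier results of these data known. Named are all members, called list genes, the genes of largest log2 change per list (at most 2 per list) and the 3 genes of highest r per member. Other genes named beside the r values or list sums, the pair of SLC12A1 and KCNJ1, and the libraries named, were chosen after their values were seen. The labels give no batch. Nothing beyond the titles and the methods says how samples were taken within a kidney, and p-values measure the spread between these samples. The floor for a count of 0 was 3 counts and covers counting error only.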

Additional observations from a re-analysis of the deposited data

Results flagged for a closer look

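In groups of 4 or 5 libraries, a library was singled out when its gap to the nearest other, divided by the group's range, passed Dixon's 95% critical value, which chance passes in about 1 of 20 groups. Of 21 groups (7 genes in 3 groups, AFB1 without replicate 1), 4 were singled out. In AFB1 these were replicate 2 for UMOD (1734 FPKM, ratio 0.938) and SLC12A1 (236 FPKM, 0.940), genes that moved together and are not separate evidence, and replicate 4 for CLDN16 (1.42 FPKM, 0.897). In AFB1_CUR it was replicate 5 for KCNJ1 (112 FPKM, 0.733). Outside the main comparisons, the library labelled AFB1 replicate 1 had a summed FPKM of 49961 over 12 hepatocyte genes, above the highest CON value of 195.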

How the results depend on the processing

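Counts of genes called between AFB1 and CON, AFB1_CUR and AFB1, and AFB1_CUR and CON (232, 123 and 214) became 639, 525 and 131 with all 15 libraries, 867, 707 and 928 without the filter on low values, and 105, 81 and 80 with limma on log2(FPKM + 1). Leaving out 1 library gave 204 to 454 (without AFB1 replicate 5), 119 to 261 (without AFB1 replicate 2) and 115 (without AFB1_CUR replicate 2) to 305. Of the 7 members 0 were called in each setting run, except that between AFB1_CUR and AFB1 it was 1 with all 15 libraries, 1 by DESeq2, both CLDN16, and 0 to 1 when 1 library was left out. The pairs correlated (15) became 9 by Spearman's rho and 10 to 17 when 1 library was left out. AFB1_CUR replicate 2 was among the 3 lowest libraries for 7 of 7 members also by TMM-normalized CPM.

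Of 189 member log2 changes under other settings, 169 kept their direction and their side of the limits, 18 changed sign and 2, both CLDN16, passed. Between AFB1 and CON, SLC12A1 was at -0.26 with all 15 libraries and at -0.11 and -0.10 with limma on log2(FPKM + 0.1) and on log2(FPKM + 1), and KCNJ1 was at -0.11 with all 15. Between AFB1_CUR and AFB1, UMOD was at 0.20, SLC12A1 at 0.23, KCNJ1 at 0.071 and CLDN10 at 0.24 with all 15, a setting that adds a library near 0 to AFB1. Between AFB1_CUR and CON, CASR was at -0.00092 with limma on log2(FPKM + 0.1). Leaving out 1 library gave, between AFB1 and CON, -0.68 to 0.33 for SLC12A1, -0.43 to 0.021 for CLDN10 and -0.22 to 0.70 for PTGER3. Between AFB1_CUR and AFB1 it gave -0.86 to 0.74 for UMOD, -0.49 to 0.65 for SLC12A1, -0.19 to 0.20 for CLDN10 and -0.026 to 0.44 for CASR. Between AFB1_CUR and CON it gave -0.43 to 0.23 for SLC12A1, -0.36 to 0.092 for KCNJ1, -0.13 to 0.46 for CLDN16 and -0.28 to 0.19 for CASR. Apart from the settings that add or leave out libraries, the cause was not tested.

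Same-numbered libraries were not treated as pairs: of 13 such pairs, 7 had a correlation of deviations over 0.1 (-0.31 to 0.60), and in 11 of 26 checks a library was closest to its own number. With the replicate block 228, 150 and 282 genes were called and 0 of 7 members in each comparison, and CLDN3 between AFB1_CUR and CON was at 0.68 and not called, as also with limma (0.53 and 0.66) and in the fit on only those groups (0.95). With the block and all 15 libraries together, a setting chosen after the data were seen, SLC12A1 was at -0.42, KCNJ1 at -0.36 and PTGER3 at -0.22 between AFB1 and CON, UMOD at 0.26, SLC12A1 at 0.48, KCNJ1 at 0.25, CLDN10 at 0.38 and PTGER3 at 0.074 between AFB1_CUR and AFB1, and SLC12A1 at 0.065 between AFB1_CUR and CON.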
